A study of Mus musculus with 8 samples.

Results

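Transcripts of 9 genes of the rod phototransduction cascade were examined in retinal pigment epithelium (RPE) isolated from Bbs8+/+ and Bbs8-/- mice at postnatal day 29 (P29). The genes were chosen by their role in the cascade, with earlier results of these data known: the subunits of rod transducin (Gnat1, Gnb1 and Gngt1), of rod phosphodiesterase 6 (Pde6a, Pde6b and Pde6g) and of the cGMP-gated channel of rods (Cnga1 and Cngb1), and rod arrestin (Sag). They are 9 of the 31053 genes in the files, and all 9 were among the 12889 genes that had a level of 1 CPM (counts scaled to the size of the library) or more in 4 or more of the 8 libraries and were tested. Each genotype was represented by 4 libraries, each from an individual animal. All mice were untreated, the controls were wild-type littermates, the strain is given as C57/Bl6 and sex was not determined. The deletion of Bbs8 (also named Ttc8) is the genotype of the whole mouse, so the photoreceptors next to the RPE had it as well. RPE sheets were peeled from eyecups after trypsin treatment, once cornea, lens and retina had been taken off.

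Rods turn light into an electrical signal through this cascade. The activated visual pigment switches on transducin, its alpha subunit relieves phosphodiesterase 6 of its inhibitory subunits, cGMP falls, and the cGMP-gated channels of the outer segment close. Arrestin ends the response by binding the phosphorylated pigment, and cones run the same steps with partner proteins encoded by separate genes. RPE cells do not run this cascade: they lie against the outer segments, engulf their shed tips and recycle the chromophore. BBS8 is a subunit of the BBSome, a complex that sorts membrane proteins at cilia, and the outer segment is itself a modified cilium.

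Rod genes share a promoter logic in which the homeobox factor CRX and the leucine zipper factor NRL bind near the start of transcription. The 250 bases before the RefSeq transcription start (build GRCm38.p6) were given for 6 of the 9 members, and 4 of these windows held no annotated exon of their gene. These 4 are shown to set the promoters of 3 photoreceptor genes beside that of Gnb1, a beta subunit that many other cell types use. They are written 5′ to 3′ on the strand of the gene, with each CRX motif (TAATCC) and each core of an NRL site (TGCTGA) in capitals, or its reverse complement (GGATTA or TCAGCA) where the motif lies on the other strand.
Gnb1: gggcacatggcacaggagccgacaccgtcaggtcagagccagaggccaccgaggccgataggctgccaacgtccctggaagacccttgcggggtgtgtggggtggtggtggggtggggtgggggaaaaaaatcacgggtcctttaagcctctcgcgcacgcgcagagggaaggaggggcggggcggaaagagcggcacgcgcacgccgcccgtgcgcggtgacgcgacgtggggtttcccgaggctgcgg
Pde6b: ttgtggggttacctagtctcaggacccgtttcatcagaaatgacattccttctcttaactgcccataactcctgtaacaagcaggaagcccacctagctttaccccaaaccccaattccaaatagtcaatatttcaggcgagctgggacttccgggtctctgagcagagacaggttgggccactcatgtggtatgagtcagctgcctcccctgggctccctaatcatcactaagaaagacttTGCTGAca
Cngb1: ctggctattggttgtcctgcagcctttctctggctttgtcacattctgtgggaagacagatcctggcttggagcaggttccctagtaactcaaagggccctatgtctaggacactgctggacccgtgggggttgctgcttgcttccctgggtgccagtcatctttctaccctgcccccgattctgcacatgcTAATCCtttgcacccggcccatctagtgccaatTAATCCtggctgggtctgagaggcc
Sag: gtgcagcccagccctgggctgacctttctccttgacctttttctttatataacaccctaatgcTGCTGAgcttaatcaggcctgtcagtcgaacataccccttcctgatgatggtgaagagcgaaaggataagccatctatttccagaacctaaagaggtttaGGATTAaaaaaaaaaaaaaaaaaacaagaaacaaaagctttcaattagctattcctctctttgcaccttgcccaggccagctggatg
The windows lie at chr4:155491111-155491360, plus strand (Gnb1), chr5:108388123-108388372, plus strand (Pde6b), chr8:95306586-95306835, minus strand (Cngb1) and chr1:87803430-87803679, plus strand (Sag). Sag held a CRX motif at bases 87 to 82 before the start, on the opposite strand, and an NRL core at bases 187 to 182. Cngb1 held 2 CRX motifs, at bases 58 to 53 and 25 to 20, and Pde6b an NRL core at bases 8 to 3. Gnb1 held neither, and differed in composition, with 69.2% G and C and 26 CpG dinucleotides against 42.8% to 55.6% and 2 or 3 CpG in the other 3. Of all 32851 windows of this length, 6.25% held a CRX motif and 16.1% an NRL core, so both motifs occur in many genes that are not rod genes. The windows of Gngt1 and Cnga1 each held 1 CRX motif but overlapped annotated exons, and Gnat1 and Pde6g had no entry. A match of letters is a description and not a bound site.

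The 8 libraries held 2389835 to 3093428 counts on genes, and 3 counts, taken as the floor, corresponded to 0.970 to 1.26 CPM, which covers counting error only. The knocked-out gene was examined first. Ttc8 (ENSMUSG00000021013, chr12:98920574-98983238, plus strand) had 105, 142, 144 and 116 counts in Bbs8+/+ replicates 1 to 4 and 15, 5, 14 and 15 in Bbs8-/- replicates 1 to 4, so that no Bbs8-/- library reached the lowest Bbs8+/+ library. Its level was 9.88% of that of the controls, a log2 fold change of −3.34 (SE 0.294, adjusted p = 2.48e-11). Whether the counted 3′ end lies inside the deleted part is not stated in the sources used here. Of the 10 RPE markers all were tested and together they held 1.47% to 1.52% of the counts in Bbs8+/+ and 1.503% to 1.56% in Bbs8-/- libraries. The 9 rod cascade genes held 3.46% to 3.57% in Bbs8+/+ and 1.64% to 1.70% in Bbs8-/- libraries, so RNA of rods was present in all 8 libraries of isolated RPE. Bbs8+/+ replicate 1 stood apart within its genotype: of 8436 genes whose mean was 10 CPM or more, 269 were more than 1 log2 unit below the median of the other Bbs8+/+ libraries there, against 62 to 74 in the other 3 Bbs8+/+ libraries. In Bbs8-/- replicates 1 to 4 the same count, within that genotype, was 226, 144, 142 and 153. Bbs8+/+ replicate 1 was thus not the only uneven library. Values without Bbs8+/+ replicate 1 are given where they matter. Reads on no annotated gene made up 17.0% to 18.4% of the reads in Bbs8+/+ and 19.8% to 20.6% in Bbs8-/- libraries. The part of this difference in the results was not tested.

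The transcripts of 8 of the 9 genes fell in Bbs8-/- RPE and that of Gngt1 did not pass the test. Among all 12889 genes tested, 6.8% were called lower and 5.46% higher by edgeR's quasi-likelihood test (adjusted p below 0.05), and the median log2 fold change was 0.022 against −1.33 over the 9 members. All 4 Bbs8-/- libraries were below all 4 Bbs8+/+ libraries for the same 8 members, against 8.64% of all genes tested. The 8 genes kept between 36.1% (Gnat1) and 58.5% (Sag) of their control level. In RNA of a whole tissue sheet, fewer rods or rod fragments and less RNA per rod cannot be told apart.

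**Figure D1:**
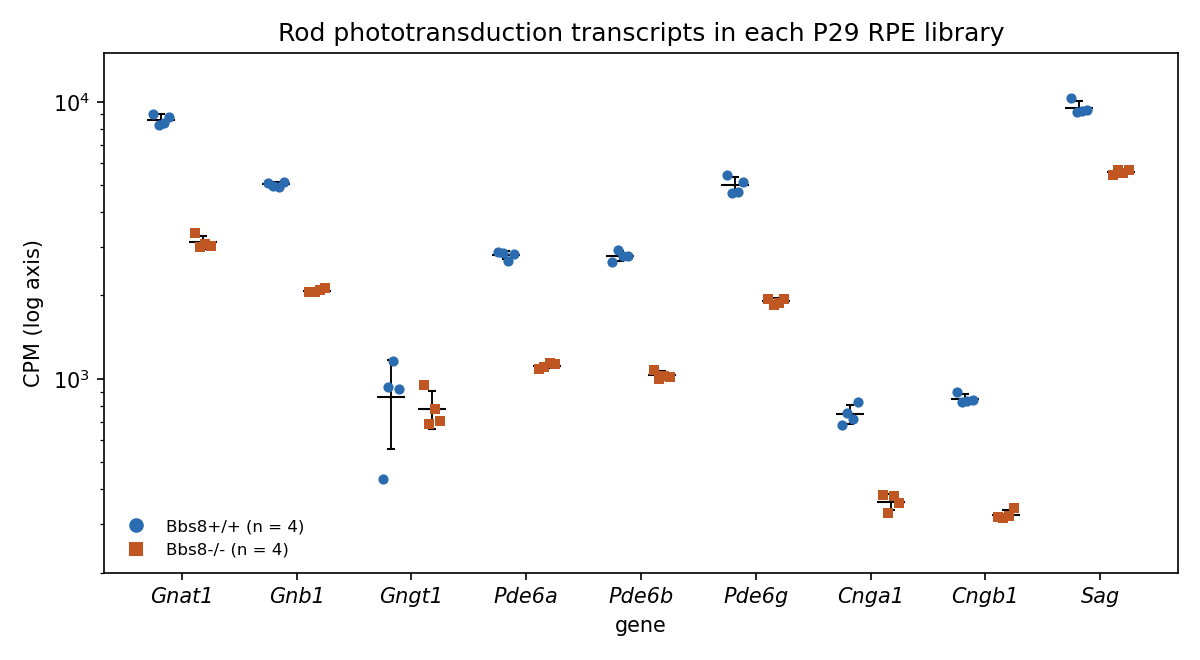
CPM (log axis) of the 9 rod phototransduction genes in each library, with circles for Bbs8+/+, squares for Bbs8-/- and black lines for mean and SD (n = 4 libraries per genotype). The 2 genotypes separated for 8 genes, whereas for Gngt1 the libraries overlapped and Bbs8+/+ replicate 1, at 434 CPM, was the lowest of all 8.

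Transducin is the G protein that couples the pigment to the enzyme. Gnat1 (ENSMUSG00000034837, chr9:107674474-107679712, minus strand), its rod alpha subunit, was at 9056, 8232, 8369.5 and 8836 CPM in the 4 Bbs8+/+ libraries and at 3359, 3002, 3058 and 3020.2 CPM in the 4 Bbs8-/- libraries. Replicate 1 was the highest of the Bbs8-/- libraries and still far below the lowest Bbs8+/+ library. This was a log2 fold change of −1.47 (SE 0.0502, adjusted p = 1.46e-23), the largest fall among the members. Gnb1 (ENSMUSG00000029064, chr4:155491361-155559269, plus strand), the beta subunit, was at 5109, 4973, 4945 and 5138 CPM in Bbs8+/+ and 2061, 2054, 2092 and 2129.6 CPM in Bbs8-/- libraries. Libraries of 1 genotype lay close together, with a coefficient of variation of 1.91% and 1.65%, and the level fell to 41.3%, a log2 fold change of −1.27 (SE 0.0512, adjusted p = 2.05e-21). Gnb1 serves G proteins of many cell types, and its log2 fold change lay between those of Cnga1 and Pde6a.

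Gngt1 (ENSMUSG00000029663, chr6:3993792-3997436, plus strand) encodes the rod gamma subunit, the small lipid-modified partner of Gnb1. Its level was 434, 936, 1157 and 920.3 CPM in Bbs8+/+ and 951, 685, 778 and 703 CPM in Bbs8-/- libraries. The first Bbs8+/+ library was below every other library and the first Bbs8-/- library was above 3 of the 4 Bbs8+/+ libraries, so the genotypes overlapped. The fit gave a log2 fold change of −0.14 (SE 0.143, adjusted p = 0.609), with a 95% interval of −0.44 to 0.15. The coefficient of variation was 35.4% in Bbs8+/+ and 15.6% in Bbs8-/- libraries, where counting error alone gives 2.10% and 2.21%. Without Bbs8+/+ replicate 1 Gngt1 passed the test, at −0.37 (adjusted p = 2.23e-04), and without Bbs8+/+ replicate 3 the estimate was 0.026 (adjusted p = 0.947). The interval with all libraries did not reach those of Gnb1 and Gnat1, whose upper bounds were −1.17 and −1.37.

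Phosphodiesterase 6 hydrolyses cGMP with a pair of catalytic subunits, held back by the gamma subunit. Pde6a (ENSMUSG00000024575, chr18:61220315-61289924, plus strand), the catalytic alpha subunit, was at 2868, 2839, 2669 and 2824 CPM in Bbs8+/+ and 1088, 1106, 1138 and 1128 CPM in Bbs8-/- libraries. Pde6b (ENSMUSG00000029491, chr5:108388391-108432397, plus strand), the catalytic beta subunit, was at 2634, 2915, 2788 and 2777 CPM in Bbs8+/+ and 1078, 998, 1027 and 1013 CPM in Bbs8-/- libraries. Neither gene had a library near those of the other genotype. The log2 fold changes were −1.33 (SE 0.0588, adjusted p = 4.44e-20) for Pde6a and −1.43 (SE 0.0603, adjusted p = 9.20e-21) for Pde6b. Pde6g (ENSMUSG00000025386, chr11:120447605-120453500, minus strand), the inhibitory gamma subunit, was at 5429, 4697, 4726 and 5132 CPM in Bbs8+/+ and 1941, 1848, 1877 and 1949 CPM in Bbs8-/- libraries. Bbs8+/+ replicates 1 and 4 were the higher ones and the Bbs8-/- libraries varied little, with a log2 fold change of −1.39 (SE 0.0558, adjusted p = 2.04e-21). The 3 subunits fell to 39.8%, 37.0% and 38.1% of the control level.

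The cGMP-gated channel carries the dark current of rods. Cnga1 (ENSMUSG00000067220, chr5:72603696-72644275, minus strand), the channel-forming alpha subunit, was at 683, 755, 719 and 823 CPM in Bbs8+/+ and 379.6, 328, 378 and 356 CPM in Bbs8-/- libraries. Cngb1 (ENSMUSG00000031789, chr8:95239045-95306585, minus strand), the modulatory beta subunit, was at 896, 822, 831 and 839 CPM in Bbs8+/+ and 317, 316, 321 and 342 CPM in Bbs8-/- libraries. Both genes separated the genotypes. Cnga1 fell to 48.4% of the control level (−1.05 on the log2 scale, SE 0.0816, adjusted p = 9.78e-13), and Cngb1 to 38.3% (−1.39, SE 0.0770, adjusted p = 5.27e-17).

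Sag (ENSMUSG00000056055, chr1:87803680-87845158, plus strand) encodes rod arrestin, which moves between the inner and outer segment with light. It was at 10303, 9198, 9261 and 9373 CPM in Bbs8+/+ and 5450.0, 5668, 5519.7 and 5684 CPM in Bbs8-/- libraries. The first Bbs8+/+ library was the highest and the Bbs8-/- libraries lay within a narrow range. The fall, a log2 fold change of −0.77 (SE 0.0458, adjusted p = 3.58e-16), was the smallest of the 8 that passed the test.

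To ask whether the members fell by the same factor, each was set against Gnat1 within its own library, which makes the comparison independent of scaling. The log2 ratio of Sag to Gnat1 counts was 0.19, 0.16, 0.15 and 0.085 in Bbs8+/+ and 0.70, 0.92, 0.85 and 0.91 in Bbs8-/- libraries. All Bbs8-/- ratios were above all Bbs8+/+ ratios, with a difference of 0.70 ± 0.0553 (SE), and the ratio of counts rose from 1.11 to 1.80. For Cnga1 the log2 ratio was −3.73, −3.45, −3.54 and −3.42 in Bbs8+/+ and −3.14, −3.19, −3.02 and −3.08 in Bbs8-/- libraries, a difference of 0.43 ± 0.0791 (SE). Gngt1 differed by 1.402 ± 0.343 (SE) and Gnb1 by 0.20 ± 0.0487 (SE), again without overlap. The ratios of the other 4 members overlapped between genotypes, and their differences were 0.039 ± 0.0625 (SE) for Pde6b, 0.082 ± 0.0377 (SE) for Pde6g, 0.086 ± 0.0571 (SE) for Cngb1 and 0.14 ± 0.0573 (SE) for Pde6a.

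Thus 4 of 8 ratios to Gnat1 did not overlap, against 74.2% of all genes tested, a share that is high because Gnat1 itself had fallen. The exact permutation test, two-sided, gave p = 0.0286 for each of the 4, the smallest value that 4 against 4 libraries allow, and 0.0571 after adjustment over the 8 ratios, so none passed the threshold. With only 4 of 8 ratios at the smallest p none could pass, so this test cannot decide whether the falls were equal. By the edgeR fit, the 95% interval of Sag, −0.87 to −0.68, did not overlap that of Gnat1, −1.57 to −1.37. Without Bbs8-/- replicate 1, in which Gnat1 was highest, 7 of 8 ratios did not overlap. Leaving out a library can only raise the share of genes without overlap, and that share was not computed for this set. No conclusion on unequal falls is drawn from this count. Within complexes, in a comparison chosen after the values had been seen, the ratio of Cngb1 to Cnga1 counts fell from 1.14 to 0.9003 without overlap (log2 difference −0.34 ± 0.0951 (SE), exact permutation p = 0.0286, adjusted over 3 ratios 0.0857). The ratio to Cnga1 fell without overlap for 0.435% of all genes. That share counts falls only and is low because Cnga1 itself had fallen, so it does not measure how unusual Cngb1 is. The ratios to Pde6a differed by −0.10 ± 0.0537 (SE) for Pde6b and −0.062 ± 0.0481 (SE) for Pde6g on the log2 scale, and both overlapped.

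**Figure D2:**
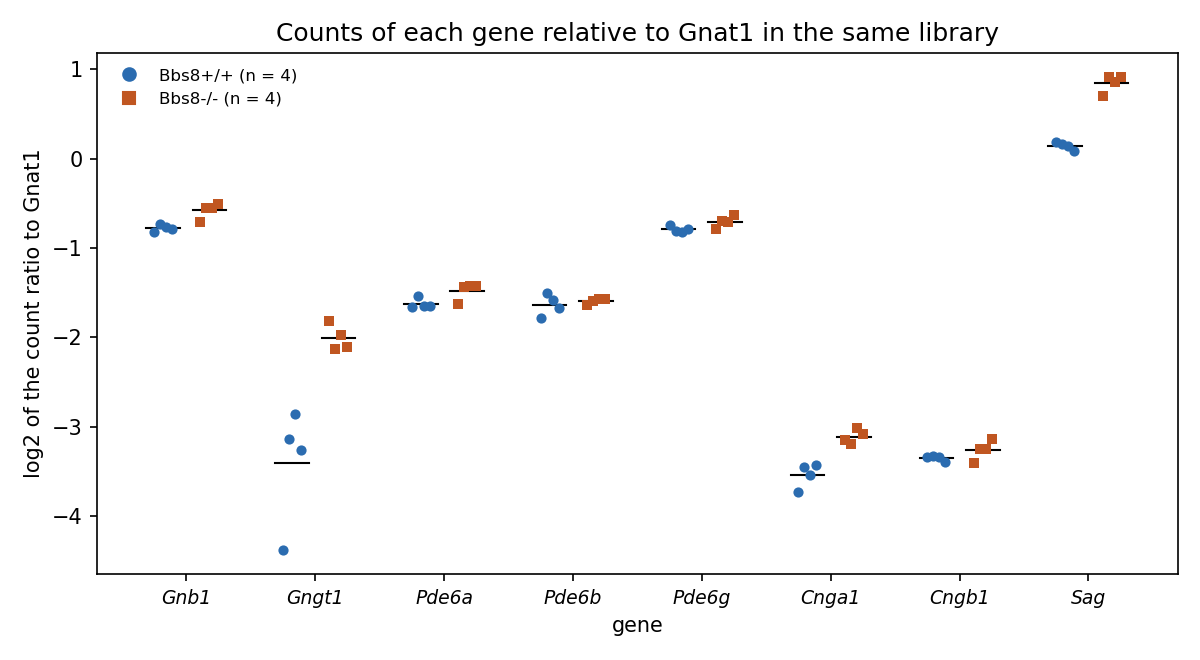
Log2 ratio of the counts of 8 members to those of Gnat1 in the same library, with circles for Bbs8+/+, squares for Bbs8-/- and lines for the mean of 4 libraries. Gnb1, Gngt1, Cnga1 and Sag had higher ratios in every Bbs8-/- library, and the other 4 overlapped.

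Cones use partner genes for the same steps, and none of the 8 partners was called lower by edgeR or DESeq2, nor at an unadjusted p below 0.05 (0 of 8 in each case). The partners Gnat2, Gnb3, Gngt2 and Pde6h were called higher, against 5.46% of all genes tested, and Pde6c, Cnga3, Cngb3 and Arr3 did not pass the test. The median log2 fold change of the 8 was 0.92. Their counts were low: together they held 0.012% to 0.016% of the counts in Bbs8+/+ and 0.035% to 0.045% in Bbs8-/- libraries. Gnb3, the cone beta subunit, which ON bipolar cells also use, had 122, 76, 102 and 88 counts in Bbs8+/+ and 499, 638, 596 and 658 in Bbs8-/- libraries. It was 6.26-fold higher in Bbs8-/- RPE with no overlap, a log2 fold change of 2.65 (SE 0.132, adjusted p = 2.05e-18). Gnat2, the cone alpha subunit, was at 26.5, 19.8, 16.8 and 24.2 CPM in Bbs8+/+ and 38.3, 38.0, 28.9 and 37.5 CPM in Bbs8-/- libraries, a log2 fold change of 0.70 (SE 0.222, adjusted p = 0.0297). Its call was lost without Bbs8+/+ replicate 2 or 3 or Bbs8-/- replicate 1, 2 or 4, with adjusted p between 0.0622 and 0.114.

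Gngt2, the cone gamma subunit, was at 14.2, 16.8, 20.9 and 16.4 CPM in Bbs8+/+ and 32.9, 46.3, 29.7 and 41.7 CPM in Bbs8-/- libraries (1.14 on the log2 scale, adjusted p = 4.37e-04). Pde6h, the inhibitory subunit of the cone enzyme, was at 7.46, 17.6, 24.2 and 19.7 CPM in Bbs8+/+ and 26.3, 40.6, 42.1 and 48.7 CPM in Bbs8-/- libraries (1.21, adjusted p = 0.00115). Both separated the genotypes, and both overlap a coding gene on the other strand, Abi3 and Arhgdib, which had at most 10 and 24 counts in a library; the strand setting of the counting is not given in the sources used here. Pde6c, the catalytic subunit of cones, had 46, 49, 45 and 42 counts in Bbs8+/+ and 35, 70, 73 and 107 in Bbs8-/- libraries, with a log2 fold change of 0.65 (SE 0.266, adjusted p = 0.117), and passed the test only without Bbs8-/- replicate 1 (0.85, adjusted p = 0.0224). Of the cone channel subunits, Cnga3 was near the floor, with 0 to 8 counts in a library, and a difference in it was not detectable at this depth. Cngb3 had 11, 7, 22 and 16 counts in Bbs8+/+ and 11, 25, 9 and 33 in Bbs8-/- libraries, with a log2 fold change of 0.44 (SE 0.503, adjusted p = 0.667), and its coefficients of variation, 52.9% and 52.3%, were larger than the 26.7% and 22.6% of counting error alone. Arr3, cone arrestin, was at 18.7, 26.2, 26.2 and 25.3 CPM in Bbs8+/+ and 24.7, 18.3, 21.2 and 23.5 CPM in Bbs8-/- libraries, and its estimate of −0.13 had a 95% interval of −0.62 to 0.35.

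**Figure D3:**
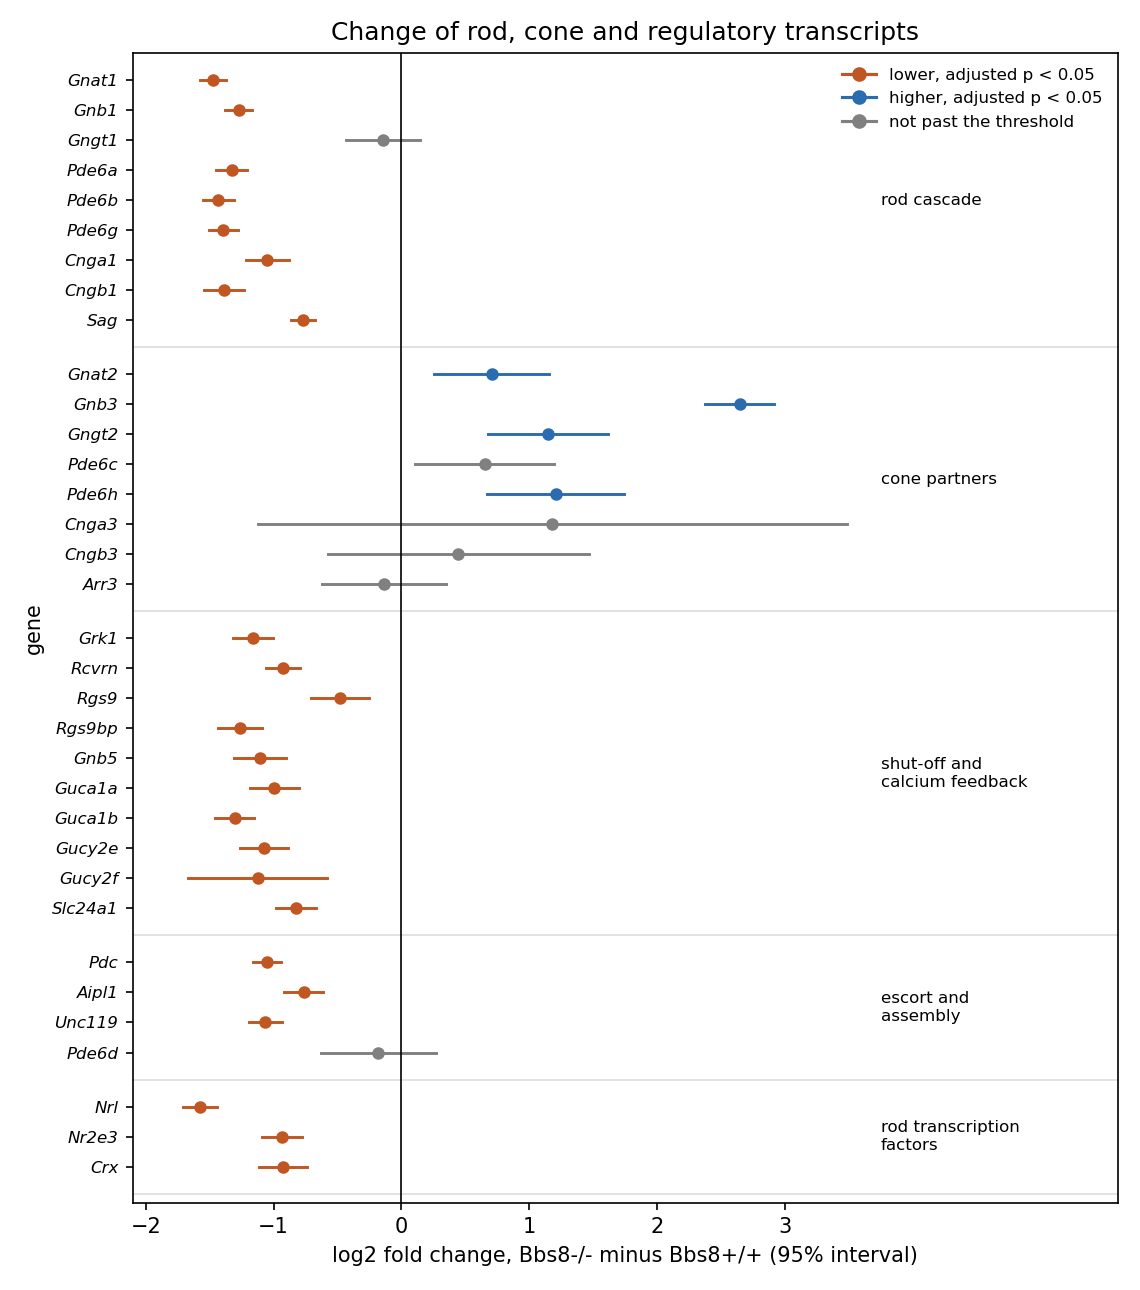
Log2 fold change (Bbs8-/- minus Bbs8+/+, with its 95% interval) of the 9 rod cascade genes, their 8 cone partners and 17 genes that regulate, escort or transcribe the cascade. Estimates left of 0 are lower in Bbs8-/- RPE: all 9 rod cascade genes, with the interval of Gngt1 crossing 0, and all 10 shut-off genes lie there, whereas 7 of the 8 cone partners lie right of 0.

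Rod genes were then set against their cone partners within each library. The log2 ratio of Gnat1 to Gnat2 counts was 8.41, 8.69, 8.94 and 8.50 in Bbs8+/+ and 6.45, 6.30, 6.72 and 6.33 in Bbs8-/- libraries, which is a mean ratio of 398 against 87.2. For Gnb1 to Gnb3 it was 6.94, 7.44, 6.88 and 7.28 in Bbs8+/+ and 3.33, 3.16, 3.13 and 3.21 in Bbs8-/- libraries, a difference of −3.93 ± 0.142 (SE). The ratio of Sag to Arr3 changed least, by −0.64 ± 0.187 (SE). Of 9 rod to cone ratios, 8 were lower in every Bbs8-/- library than in any Bbs8+/+ library (exact permutation test, two-sided, p = 0.0286, adjusted over the 9 ratios 0.0321). The adjusted value passed the threshold because 8 of the 9 ratios shared the smallest p that 4 against 4 libraries allow. The count of 8 depends on the partner as well as on the rod gene. Of all other genes tested, 88.4% had a lower ratio to Gnb3 in every Bbs8-/- library, 54.6% to Gngt2, 41.8% to Pde6h and 32.4% to Gnat2, the 4 partners called higher, so a lower ratio to Gnb3 or Gngt2 was what most genes showed. For the partners not called, the share was 12.4% for Pde6c, 3.6% for Arr3, 1.32% for Cngb3 and 0.473% for Cnga3. Only Cnga1 to Cnga3 overlapped (difference −1.98 ± 1.15 (SE), exact permutation p = 0.143), where the partner had 0 to 8 counts. The gap was small for Gngt1 to Gngt2, with 4.91 in the lowest Bbs8+/+ and 4.84 in the highest Bbs8-/- library. Pde6a and Pde6b share the partner Pde6c, so these 2 ratios are not independent.

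**Figure D4:**
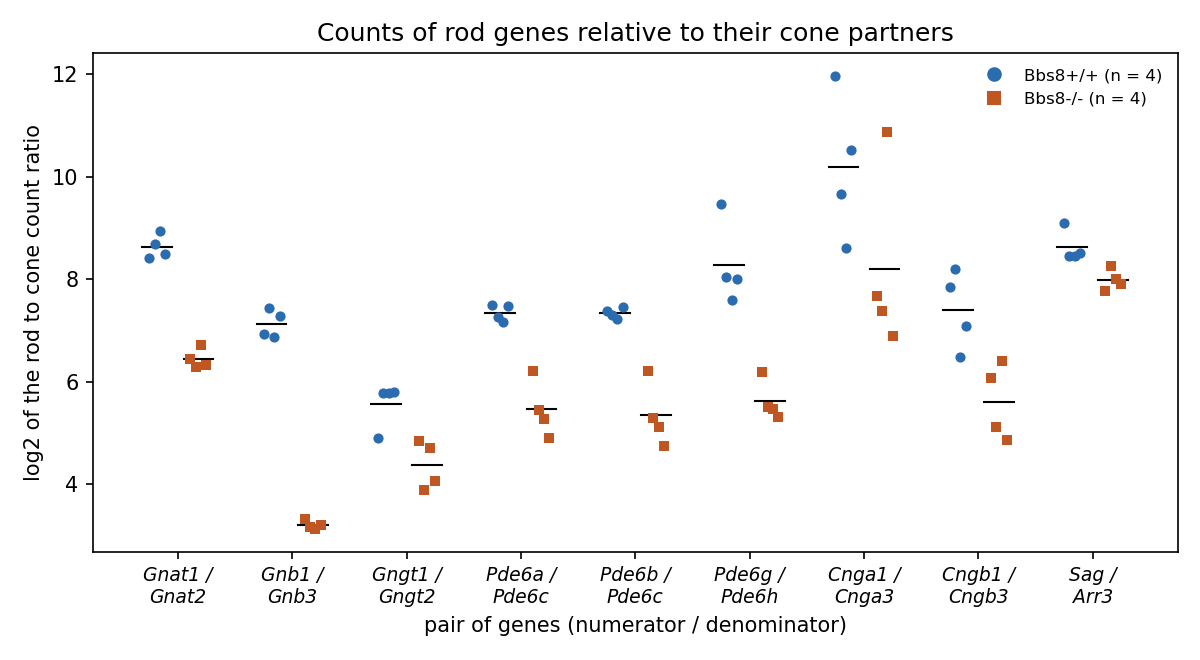
Log2 ratio of rod to cone counts for 9 pairs of genes in each library, with circles for Bbs8+/+, squares for Bbs8-/- and lines for the mean of 4 libraries. The squares lie below the circles in 8 pairs, and the pair of Cnga1 and Cnga3 overlaps.

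The genes that shut off the cascade and restore calcium and cGMP all fell, 10 of 10, against 6.8% of all genes tested called lower. Their median log2 fold change was −1.09. Grk1, the kinase that phosphorylates the activated pigment, was at 743, 728, 758 and 787 CPM in Bbs8+/+ and 328, 352, 325 and 344 CPM in Bbs8-/- libraries, a log2 fold change of −1.16 (SE 0.0774, adjusted p = 1.11e-14). Recoverin, encoded by Rcvrn, restrains this kinase in the dark and fell to 52.7% (−0.93, adjusted p = 4.56e-14). The complex that speeds GTP hydrolysis by transducin is built from Rgs9, its membrane anchor Rgs9bp and Gnb5. Rgs9 was at 168, 145, 148 and 145 CPM in Bbs8+/+ and 104, 116, 103 and 112 CPM in Bbs8-/- libraries and had the smallest fall of the list (−0.48, SE 0.114, adjusted p = 0.00269), while Rgs9bp and Gnb5 fell by 1.26 and 1.11 on the log2 scale. Guca1a and Guca1b, which activate guanylate cyclase when calcium drops, fell to 50.1% and 40.5% of the control level. The cyclases themselves, Gucy2e and Gucy2f, had log2 fold changes of −1.08 (adjusted p = 1.93e-11) and −1.13 (adjusted p = 0.0028). Gucy2f, at 58.0, 45.6, 20.1 and 27.2 CPM in Bbs8+/+ and 20.2, 17.9, 18.8 and 12.6 CPM in Bbs8-/- libraries, was the only gene of the list whose genotypes overlapped. Slc24a1, the exchanger that removes calcium from the rod outer segment, fell from 2012 ± 311 to 1136 ± 40.8 CPM (SD, n = 4 libraries per genotype).

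Among genes that escort or assemble cascade proteins, 3 of 4 fell, against 6.8% of all genes tested called lower. Pdc, phosducin, which binds the beta and gamma subunits of transducin, was at 4063, 4528, 4544 and 4547 CPM in Bbs8+/+ and 2182, 2151, 2025 and 2179.6 CPM in Bbs8-/- libraries, a log2 fold change of −1.05 (SE 0.0549, adjusted p = 7.76e-18). Aipl1, the chaperone of phosphodiesterase 6, fell to 58.8%, and Unc119, which carries the acylated transducin alpha subunit, to 47.8% of the control level (log2 fold changes −0.77 and −1.06, adjusted p = 3.30e-10 and 7.40e-16). Pde6d, a carrier of prenylated proteins in many cell types, did not pass the test. Its level was 25.4, 89.3, 113 and 74.8 CPM in Bbs8+/+ and 66.6, 65.0, 61.7 and 71.8 CPM in Bbs8-/- libraries, with a log2 fold change of −0.18 (SE 0.222, adjusted p = 0.696). Like Gngt1, it was lowest in Bbs8+/+ replicate 1: without that library it was called lower at −0.47 (adjusted p = 0.0250), and without Bbs8+/+ replicate 3 the estimate was 0.072 (adjusted p = 0.904).

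The factors that drive rod genes fell as well, 3 of 3, against 6.8% of all genes tested called lower. Nrl, the leucine zipper factor that sets rod fate, was at 2207, 2122, 2124 and 2142 CPM in Bbs8+/+ and 696, 674, 808 and 708 CPM in Bbs8-/- libraries, a log2 fold change of −1.58 (SE 0.0666, adjusted p = 1.03e-20). Its fall was larger than the fall of any rod cascade gene by estimate, though its 95% interval, −1.71 to −1.44, overlapped that of Gnat1, −1.57 to −1.37. Nr2e3, the nuclear receptor that represses cone genes in rods, and Crx, the homeobox factor of both photoreceptor types, fell to 52.4% and 52.6% of the control level (log2 fold changes −0.93 and −0.93, adjusted p = 3.64e-12 and 8.28e-10).

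Markers of other tissues of the eye were compared beside these results. Of the 8 lens markers, all fell, and their summed share was 0.191% to 0.209% of the counts in Bbs8+/+ and 0.026% to 0.032% in Bbs8-/- libraries. Their log2 fold changes were uneven, with a median of −2.86 and a range of −3.47 to −0.91. Of the 9 markers of inner retina neurons, 7 were tested and none passed the test by edgeR or DESeq2 (1, Rbpms, was higher at an unadjusted p below 0.05 by either tool), with a summed share of 0.0032% to 0.0045% in Bbs8+/+ and 0.0040% to 0.0065% in Bbs8-/- libraries, and 6 of the 9 were at 0 in at least 1 library. Of the 5 Müller glia markers 2 rose (Glul and Dkk3), 3 did not pass the test and none fell. At an unadjusted p below 0.05, 4 of the 5 were higher by edgeR and by DESeq2. Among the 3 that did not pass, Aqp4 and Kcnj10 were near the floor, with means of 1.52 and 0.95 CPM in Bbs8+/+ libraries. The summed share of the 5 was 0.110% to 0.132% in Bbs8+/+ and 0.1801% to 0.194% in Bbs8-/- libraries, most of it from Glul. Among the 10 RPE markers 3 fell (Rdh5, Stra6 and Pmel), Slc16a8 rose and 6 did not pass the test, with a median log2 fold change of −0.084. Of all genes tested, 6.8% were called lower and 5.46% higher. All Bbs8-/- libraries were below all Bbs8+/+ libraries for 4 of the 10 RPE markers, against 8.64% of all genes tested. Lens and rod cascade genes thus moved in the same direction by genotype. The RPE markers called went both ways, more of them lower than higher. Their summed share of raw counts, without TMM scaling, overlapped between genotypes. The TMM factors were 0.955 to 0.980 in Bbs8+/+ and 1.02 to 1.046 in Bbs8-/- libraries. Summed as TMM-scaled CPM, the RPE markers were lower in every Bbs8-/- library than in any Bbs8+/+ library. The part of tissue carried along with the RPE sheets in the fall of the rod genes was not tested.

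**Figure D5:**
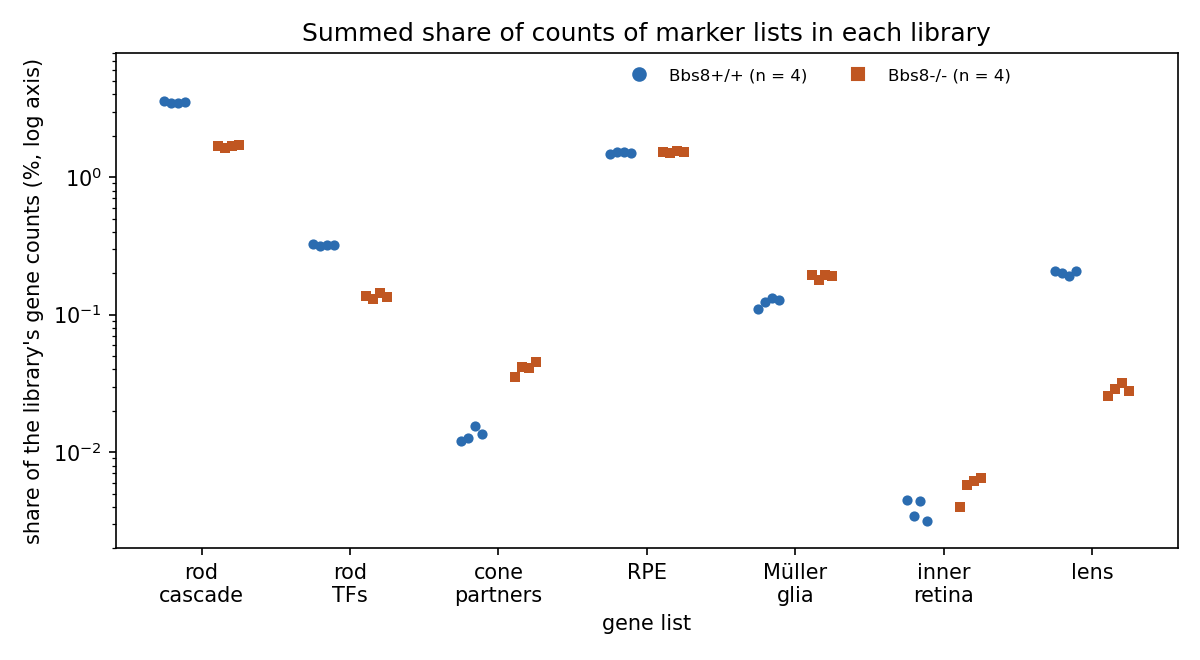
Summed share of each library's raw gene counts, without TMM scaling (percent, log axis), on 7 lists of genes, with circles for Bbs8+/+ and squares for Bbs8-/-. The rod cascade, rod transcription factor and lens lists were lower in every Bbs8-/- library. The cone partner and Müller glia lists were higher, the latter mostly from Glul, and the RPE and inner retina lists overlapped between genotypes.

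The genes outside these lists whose levels followed the members most closely were named by a fixed rule, the Pearson correlation of log2 CPM with the mean of the 9 members over the 8 libraries, among 8436 tested genes whose mean was 10 CPM or more. Among the 5 highest were Cryba1 and Crygc, which encode lens crystallins, Rp1l1, which encodes a protein of the photoreceptor axoneme, and Prph2, which encodes a rim protein of the outer segment discs. The coefficients of these 4 lay between 0.9963 and 0.9995. The libraries fall into 2 separate groups by genotype, so these coefficients mostly follow the difference between genotypes, and no test was made. Prph2 fell by 1.25 on the log2 scale (adjusted p = 2.69e-18), within the range of the cascade genes, and Cryba1 fell by 2.86 (adjusted p = 2.28e-23). Of the members themselves, 8 had a coefficient of 0.98 or more with the members' mean, and Gngt1 had 0.15. That mean includes the gene itself, and these values too mostly follow the difference between genotypes.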

How the data were processed

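RNA of isolated RPE, 30 ng per library, was prepared with the QuantSeq 3′ kit, which reads the 3′ end of polyadenylated transcripts, and read as single-end reads of 100 bp. Per the study's methods the authors trimmed reads with BBDuk, aligned them with STAR to mm10 with Ensembl gene models, and used htseq-count to assign uniquely mapped reads to genes. The values deposited by the authors are raw counts per gene, without normalization. Rows that name no gene (50.9% to 54.2% of a library) were left out. Genes of 1 CPM or more in 4 or more libraries were scaled by TMM and compared between the genotypes given in the labels with edgeR 4.0.16 in R 4.3.3 (quasi-likelihood F test, two-sided, Benjamini-Hochberg adjustment over all tested genes, threshold 0.05), after a check on simulated counts. CPM used TMM-scaled library sizes. Ratios used counts plus 0.5 and exact permutation tests (scipy 1.17.1). The median shift of log2 fold changes was 0.089 when libraries were scaled by size alone. Alternatives were DESeq2 1.42.0, 2 other scalings, 2 other filters, a replicate block, another pseudocount of 5 and leaving out each library. Coordinates come from GENCODE on GRCm38, the build of the files, and promoter windows from RefSeq.

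The text names the 9 members, Ttc8, the genes of the cone partner, shut-off, escort and transcription factor lists, and genes among the 5 outside the lists most like the members; markers are given by count and range, and the markers named in addition were chosen after their values were seen. The members and lists were chosen with earlier results of these data known. Results for some genes that these rules cover are not reported here. P-values rest on the spread between single animals, whose sex is unknown. In edgeR the spread of each gene is drawn toward that of the other genes. For a gene as uneven as Gngt1 its SE and interval may therefore be too narrow.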

Additional observations from a re-analysis of the deposited data

Results flagged for a closer look

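Among 110 groups of 4 libraries examined, 12 had a library whose gap to its nearest neighbour was an unusually large part of the group's range, where chance gives about 1 in 20. In Bbs8+/+ replicate 1 this held for Sag (10303 CPM against 9198 to 9373 CPM in the other libraries of the genotype, gap 0.842 of the range), Rgs9 (168 CPM against 145 to 148 CPM, 0.859), Arr3 (18.7 CPM against 25.3 to 26.2 CPM, 0.882) and Pdc (4063 CPM against 4528 to 4547 CPM, 0.961). The same library stood apart in the log2 ratios of Gngt1 to Gngt2 (4.91 against 5.78 to 5.80, gap 0.980) and of Sag to Arr3 (9.10 against 8.45 to 8.52, gap 0.886). In Bbs8-/- replicate 1 it held for Gnat1 (3359 CPM against 3002 to 3058 CPM, gap 0.844), Aipl1 (618 CPM against 652 to 657 CPM, 0.889), and the log2 ratios of Pde6a to Gnat1 (−1.63 against −1.44 to −1.42, gap 0.8995) and Pde6b to Pde6a (−0.014 against −0.16 to −0.15, gap 0.947). The other 2 were Gnat2 in Bbs8-/- replicate 3 (28.9 CPM against 37.5 to 38.3 CPM, gap 0.915) and the ratio of Pde6a to Gnat1 in Bbs8+/+ replicate 2 (−1.54 against −1.66 to −1.65, gap 0.893).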

How the results depend on the processing

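The 8 falls among the members passed the threshold under every alternative run. DESeq2, both other scalings, both other filters and the replicate block each gave 8 members lower and 0 higher, and leaving out 1 library gave 8 to 9 lower. Replicate numbers did not pair the libraries: same-numbered libraries of the 2 genotypes had correlations of their deviations between −0.055 and 0.0054, and with the replicate block the counts of genes called lower stayed at 10, 3 and 3 for the shut-off, escort and transcription factor lists, with 4 cone partners higher. In same-numbered pairs, 5 of 8 ratios to Gnat1 and 8 of 9 rod to cone ratios had 1 direction in all 4 pairs. With 1 library left out, 3 to 4 cone partners were called higher, and the number of ratios to Gnat1 without overlap ranged from 4 to 7, the highest without Bbs8-/- replicate 1. The shares of all genes that meet these criteria for ratios were not computed, so the counts of ratios cannot be set against a background. Directions changed in 3 cases with 1 library left out: the log2 fold change of Gngt1 ranged from −0.37 to 0.026 and that of Pde6d from −0.47 to 0.072, both positive without Bbs8+/+ replicate 3, and the log2 ratio of Pde6b to Gnat1 differed by −0.010 to 0.084, negative without Bbs8+/+ replicate 1. The cause was not tested. With 3 against 4 libraries an exact test of a ratio cannot pass the threshold after adjustment. Depth limits Cnga3, which had 0 to 8 counts in a library.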
